A study of Homo sapiens with 2 samples.

Results

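Hif1a and Egln1 were 2 of the 3764 genes listed in a count table of samples labelled as HepG2 cells. They were selected on their counts in the knockout and vector libraries of that table. Every difference between those libraries in these 2 genes is therefore given as a description, without a test. HepG2 is a human hepatocellular carcinoma line. By the labels, 1 library came from HepG2 cells carrying a vector, with the genotype WT. The other 1 came from HepG2 cells in which SCRN1 (secernin 1) had been knocked out with CRISPR-Cas9. Both cultures were kept in serum-containing DMEM with no other treatment, and the labels name no hypoxic exposure. Whether the knockout cells were 1 clone or a pool, and at which oxygen level they grew, is not stated in the labels.

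HIF1A encodes the oxygen-regulated alpha subunit of hypoxia-inducible factor 1. EGLN1, also called PHD2, encodes a prolyl hydroxylase that uses oxygen and 2-oxoglutarate to hydroxylate HIF-alpha proteins. The hydroxylated subunit is bound by the von Hippel-Lindau (VHL) ubiquitin ligase and degraded by the proteasome. When oxygen is scarce the alpha subunit persists, pairs with ARNT, and binds hypoxia response elements next to genes of glycolysis, angiogenesis and iron handling. EGLN1 is itself a known HIF target, so that the pathway contains a negative feedback loop. Much of the control of HIF1A acts on the protein, which RNA counts do not measure.

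The sequences just upstream of both genes are shown because the feedback loop runs through a hypoxia response element in the EGLN1 promoter. They are the 250 bases before each annotated human start in RefSeq (GRCh38.p14), written 5′ to 3′ on the strand of the gene, with the cores ACGTG and GCGTG in capitals. Both strands were searched for these letters, and neither core overlapped another match in these windows. The HIF1A window was chr14:61695263-61695512 on the plus strand, and the EGLN1 window was chr1:231422288-231422537 on the minus strand.
HIF1A: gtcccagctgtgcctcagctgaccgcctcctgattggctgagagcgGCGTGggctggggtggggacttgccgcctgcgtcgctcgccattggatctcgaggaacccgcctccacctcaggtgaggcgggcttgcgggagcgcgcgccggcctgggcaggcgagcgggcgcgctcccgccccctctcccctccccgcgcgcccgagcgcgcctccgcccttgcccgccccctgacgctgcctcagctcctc
EGLN1: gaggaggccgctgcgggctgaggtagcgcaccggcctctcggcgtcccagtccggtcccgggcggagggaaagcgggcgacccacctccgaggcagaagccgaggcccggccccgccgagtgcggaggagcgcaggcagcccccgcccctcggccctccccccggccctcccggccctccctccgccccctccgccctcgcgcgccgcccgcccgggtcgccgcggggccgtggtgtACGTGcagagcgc

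The EGLN1 window held 1 match, ACGTG, whose first base lay 13 bases before the start. The HIF1A window held 1 match, GCGTG, whose first base lay 204 bases before the start. Among 35116 promoter windows of the same length, 18.5% held ACGTG, 32.2% held GCGTG and 43.2% held at least 1 of them on either strand. The match is therefore a description of these letters and not evidence that a factor binds there. RefSeq lists a second HIF1A start, which is not shown.

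The table listed mouse genes only (3764 of 3764 identifiers), although the samples are labelled as human and GRCh38 is the build in the submitters' processing notes. Hif1a (ENSMUSG00000021109) was placed on mouse chromosome 12 from 73901375 to 73947530, and Egln1 (ENSMUSG00000031987) on mouse chromosome 8 from 124908587 to 124949324. Both are annotated as protein-coding, and the sources used here name no mouse build. They do not say how reads of human cells could have been assigned to mouse genes, and the mouse-only table may not belong to these samples. Every value below is that of the table's columns named for the vector and the knockout, and the part of this mismatch in them was not tested. The libraries summed to 178421 counts (vector) and 163644 counts (knockout). The median listed gene had 11 counts over both libraries. Of 13 hepatocyte markers, Krt8 alone was listed, with 0 and 2 counts, so the markers did not show the labelled cell type. The reason for their absence was not tested. Since each group was 1 library, none of the differences could be checked against replicates, and all intervals (exact, 95%) stand for counting error alone.

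Hif1a was lower in the knockout library. Its count was 55 with the vector and 8 after the knockout. These correspond to 308 CPM, counts scaled to a common library total (Poisson interval 232 to 401), and 48.9 CPM (21.1 to 96.3), and the intervals did not overlap. After scaling of the libraries by the trimmed mean of M-values (TMM), the knockout-over-vector ratio was 0.161 (0.0662 to 0.340). In the other direction, the vector library held 6.21 times as much Hif1a as the knockout library (2.94 to 15.1). It was past the 2-fold rule used here, which requires at least 20 counts over both libraries, a ratio of at least 2 or at most 0.5, and an interval that excludes equality. Among the markers of other cell types, 1 of 4 leukocyte markers was listed: Lyz2, a macrophage lysozyme gene, at 21 and 3 counts, a ratio of 0.158 (0.0302 to 0.529). Ptprc, Cd68 and Cd14 were not listed, and of 5 fibroblast markers Col1a1 alone was, at 6 and 4 counts. The part of other cells in the Hif1a value was not tested. In bulk RNA, fewer cells that express a gene and less RNA per cell cannot be told apart.

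For Egln1 the count was 23 with the vector and 33 after the knockout. These correspond to 129 CPM (81.7 to 193) and 202 CPM (139 to 283), and the intervals overlapped. The knockout-over-vector ratio was 1.59 (0.905 to 2.83). The interval held both equality and a 2-fold difference, so Egln1 could not be told from either at this depth, and it was not past the 2-fold rule. The point estimates of the Egln1 and Hif1a counts lay on opposite sides of equality.

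**Figure D1:**
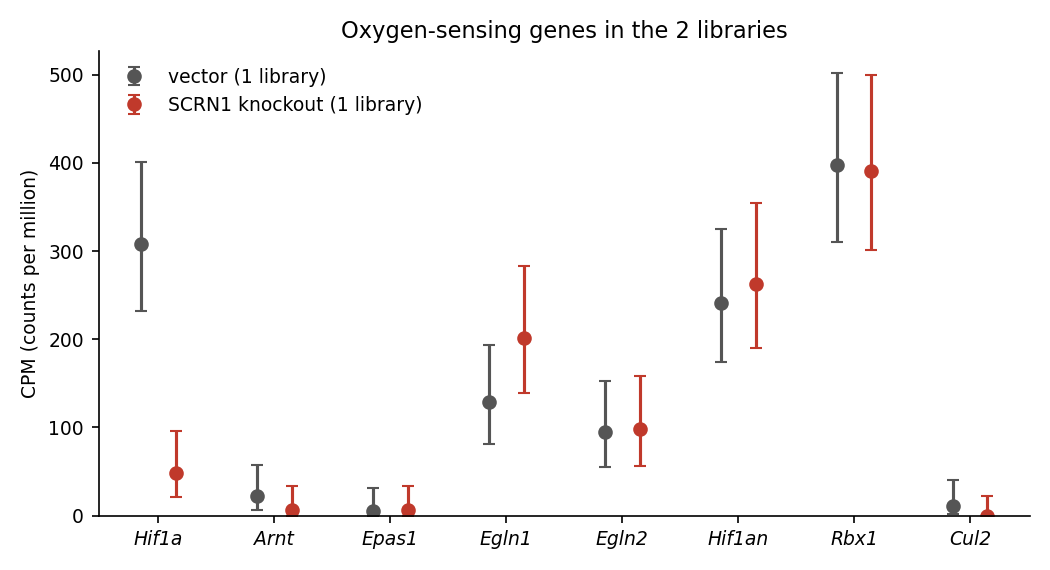
CPM (vertical axis) of 8 listed genes of the oxygen-sensing pathway in the vector library (grey) and the SCRN1 knockout library (red). Points are the value of 1 library and bars the exact Poisson 95% interval, which covers counting error only. Hif1a stood at 308 and 48.9 CPM, and Hif1an and Rbx1 stood at nearly the same height in both libraries.

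The background of the table sets the scale for these ratios. Of 1588 genes with at least 20 counts, 62 (3.9%) were lower and 53 (3.34%) higher in the knockout library by the same rule, 7.24% in all. Scaling by the median of ratios moved each log2 ratio by -0.15 and gave 89 lower and 42 higher genes. Hif1a was 1 of the 62, and nothing is read from that count because its ratio chose it. Sparsely counted genes passed more often. The share called in either direction was 12.8% at 20 to 49 counts, 6.93% at 50 to 99 counts, where both Hif1a (63 counts) and Egln1 (56 counts) fell, and 1.17% at 200 or more. In the class of 50 to 99 counts, 18 of 404 genes (4.46%) were lower. Hif1a ranked 26 from the bottom of the 1588 ratios. For Egln1, 150 genes (9.45%) had a higher ratio.

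**Figure D2:**
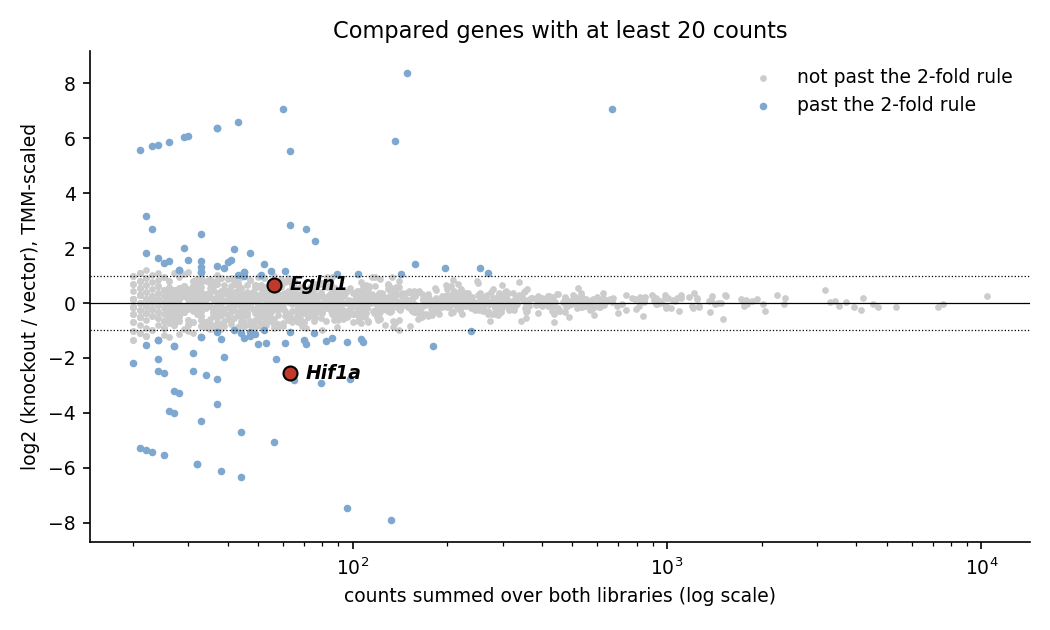
The log2 ratio of knockout over vector (vertical axis, TMM-scaled, 0.5 added to each count) against counts summed over both libraries (horizontal log axis) for the 1588 compared genes. Blue points passed the 2-fold rule and grey points did not; dotted lines mark 2-fold. Hif1a lay at -2.56 among the lower genes, and Egln1 at 0.66 lay inside the grey band.

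The counts of Egln1 and Hif1a can also be compared within each library, where no scaling between libraries enters. They are RNA counts and do not give the balance of the enzyme and its substrate protein. How the mismatch of human samples and mouse genes affects the yield of each gene was not tested. In the vector library Hif1a had 2.39 counts for each Egln1 count (1.45 to 4.08). In the knockout library the order was reversed, with 4.125 Egln1 counts for each Hif1a count (1.87 to 10.3). Both genes were selected on these same counts, so the difference between the libraries is a description and its interval no test. The odds ratio between the libraries, by the conditional estimate, was 9.64 (3.69 to 28.1). Hif1a contributed most of this shift, since its own ratio was 6.21-fold and that of Egln1 was 1.59-fold.

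Per length, as FPKM (fragment counts scaled by gene length and library size) in the deposited table, the 2 genes were closer in the vector library. Hif1a stood at 44.2 FPKM (33.3 to 57.5) and Egln1 at 35.7 FPKM (22.6 to 53.6) there, and these intervals overlapped. In the knockout library Hif1a stood at 7.01 FPKM (3.02 to 13.8) and Egln1 at 55.9 FPKM (38.5 to 78.5), and these did not overlap. The Egln1-over-Hif1a ratio of FPKM was 0.809 with the vector and 7.98 after the knockout. By FPKM rank among the 3764 listed genes, Hif1a went from 667 with the vector to 1957 after the knockout, and Egln1 from 774 to 555. These ranks restate the counts on which both genes were selected.

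The other HIF subunits were too sparse to compare. Arnt, which encodes the constitutive partner HIF-1 beta, had 4 counts with the vector and 1 after the knockout. Epas1, which encodes HIF-2 alpha, had 1 count in each. Hif3a and Arnt2 were not among the listed genes. Hif1a was thus the only one of 5 subunit genes that reached 20 counts, and whether another alpha subunit differed was not detectable at this depth.

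The other oxygen-sensing hydroxylases lay near equality in their point estimates. Egln2, which encodes the prolyl hydroxylase PHD1, had 17 and 16 counts in the vector and knockout libraries, a ratio of 1.04 (0.492 to 2.19), or 0.941 when scaled by the median of ratios. Hif1an encodes the asparaginyl hydroxylase FIH, which blocks coactivator binding to HIF-alpha. It had 43 counts in each library, a ratio of 1.11 (0.708 to 1.73). Of the 3 hydroxylase genes compared, 0 passed the rule (7.24% of all compared genes did). With 3 genes, among them Egln1, which was selected on its counts, a count of 0 is near the background. The intervals of Egln1, Egln2 and Hif1an overlapped one another. Egln1 had the highest ratio of the 3, which these counts do not separate from the other two. Egln3 and P4htm were not among the listed genes.

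In FPKM the order of the subunit, hydroxylase and ligase genes with at least 20 counts was Rbx1, Hif1a, Egln1, Hif1an and Egln2 in the vector library. Rbx1 stood at 63.4 FPKM there, Hif1an at 35.0 and Egln2 at 28.6. Neighbours in that order had overlapping intervals. In the knockout library the order was Rbx1 (62.4 FPKM), Egln1, Hif1an (38.2 FPKM), Egln2 (29.3 FPKM) and Hif1a. Hif1a at 7.01 FPKM went from the second place to the last. Its interval there lay below that of its neighbour Egln2 (16.8 to 47.6), while the other neighbours overlapped. Nothing is read from this fall, because Hif1a was selected on the same counts.

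Of 5 genes of the VHL ubiquitin ligase, 2 were listed and only 1, that of its RING subunit, reached 20 counts. The ligase as a whole was therefore not measured. Rbx1 was counted at 71 with the vector and 64 after the knockout, a ratio of 0.998 (0.700 to 1.42). Cul2, the cullin scaffold, had 2 and 0 counts, below the floor of 3 counts used here, so no fold is given. Vhl, Elob and Eloc were not among the listed genes.

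Of 18 genes that act on HIF stability or as coactivators, 12 were listed, 6 reached 20 counts and 0 passed the rule, against 7.24% of all compared genes, so that with 6 genes a count of 0 is near the background. Their median log2 ratio was 0.48, against 0.03 over all compared genes. Cited2, a HIF target whose product competes with HIF-alpha for CBP and p300, had 60 and 72 counts, a ratio of 1.33 (0.930 to 1.90). Crebbp, which encodes the coactivator CBP, had 50 and 47 counts, a ratio of 1.04 (0.683 to 1.58), or 0.940 with the same change of scaling. Ncoa2, a nuclear receptor coactivator gene, had 16 and 28 counts. Its ratio of 1.94 (1.01 to 3.83) excluded equality narrowly but did not reach 2-fold.

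Few HIF target genes were counted well enough to compare. Of 58 targets in both lists, 14 were listed, 5 reached 20 counts and 0 passed the rule in either direction, which for 5 genes is near the background of 7.24%. The median log2 ratio of these 5 was 0.22, and their range was -0.01 to 0.68. Pgam1, a phosphoglycerate mutase gene of glycolysis, was the best counted, with 210 (vector) and 221 (knockout) counts and a ratio of 1.16 (0.960 to 1.41). Pkm, a pyruvate kinase gene, had 31 and 45 counts, a ratio of 1.61 (0.994 to 2.63). Aldoa, an aldolase gene, had 26 and 24 counts, a ratio of 1.02 (0.562 to 1.85), which was 0.923 when scaled by the median of ratios.

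Vegfa, which encodes vascular endothelial growth factor A and is a classical HIF target, had 49 counts with the vector and 44 after the knockout. Its ratio was 0.994 (0.646 to 1.52). Pgk1, a phosphoglycerate kinase gene, had 10 and 11 counts, a ratio of 1.22 (0.469 to 3.20). The intervals of these 5 targets lay above that of Hif1a, whose upper bound was 0.340. Nothing is read from that order, because Hif1a was chosen for its low value. Ndrg1, a hypoxia-induced gene, had 2 and 3 counts, at or below the floor of 3 counts in both libraries. Mxi1, a MYC antagonist gene, had 0 and 4 counts, while Tpi1, Eno1 and Plod2 had 3 and 0 counts each, and the intervals of all 4 ratios held equality. Slc2a1, the GLUT1 glucose transporter gene, had 3 and 1 counts.

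EGLN1 belongs to the 2-oxoglutarate-dependent dioxygenases, and other enzymes of that class, among them histone demethylases, were compared as relatives. Of 23 such genes, 12 were listed and 9 reached 20 counts. Of these 9, 1 was higher and 1 lower, which is 22.2% against 7.24% of all compared genes. The difference between these shares was not tested. Their median log2 ratio was -0.09. Kdm5c, a histone H3 lysine demethylase gene, had 3 counts with the vector and 20 after the knockout, 7.38-fold higher (2.19 to 38.8). Kdm7a, another histone demethylase gene, had 17 and 5 counts, 3.07-fold lower (1.09 to 10.7). Both lay in the class of 20 to 49 counts, where 12.8% of genes were called.

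The 3 best counted dioxygenase genes did not pass the rule. Kdm6a, which encodes the demethylase UTX, had 156 and 129 counts, a ratio of 0.915 (0.719 to 1.16). Jmjd1c had 60 and 45 counts, a ratio of 0.830 (0.551 to 1.24), and Kdm5b had 38 and 50, a ratio of 1.46 (0.936 to 2.28).

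**Figure D3:**
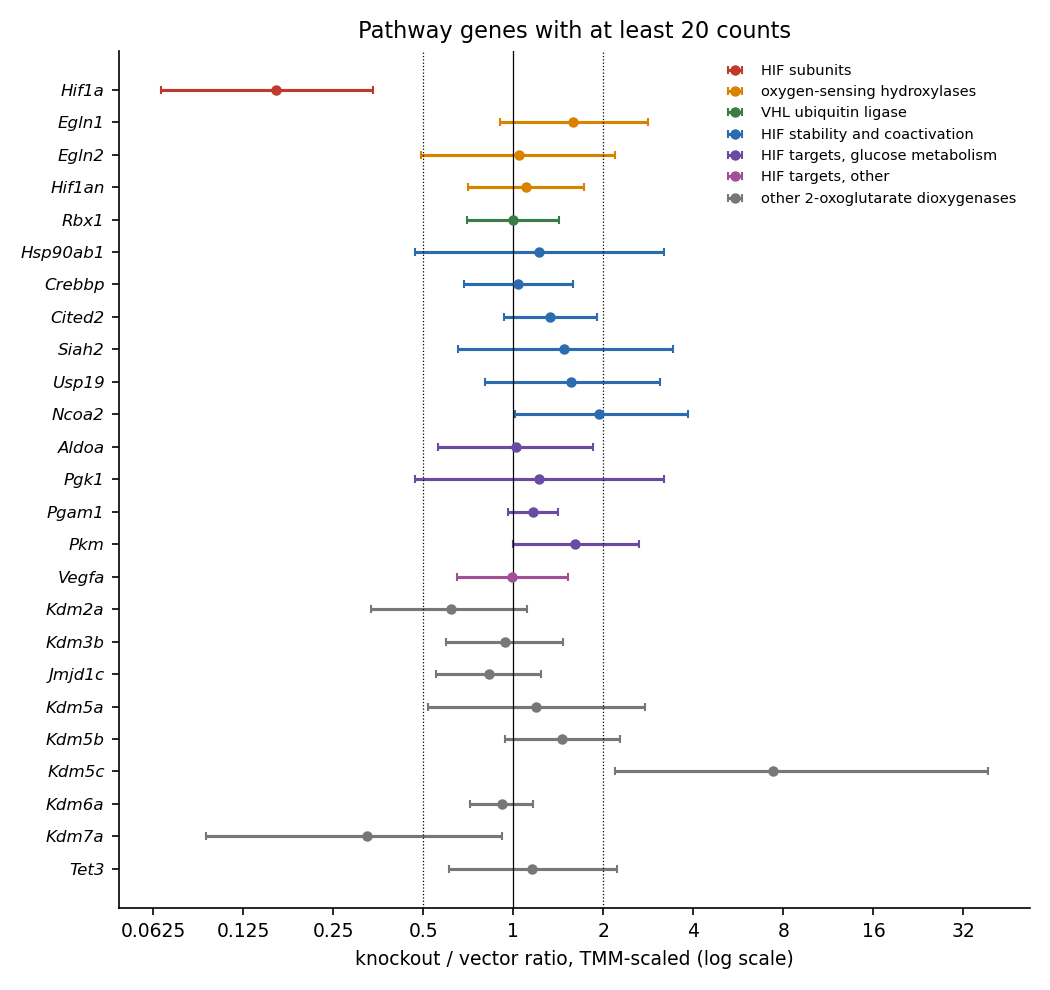
Knockout-over-vector ratio (horizontal log axis, TMM-scaled) of each pathway gene with at least 20 counts, coloured by list, with exact 95% counting intervals. Dotted lines mark 2-fold. Hif1a (0.161) lay below the hydroxylases, the VHL ligase gene Rbx1 and the HIF targets. It was selected on its counts, so nothing is read from that order. Kdm5c and Kdm7a were the other genes past the rule, and the interval of Kdm7a (0.0939 to 0.919) overlapped that of Hif1a.

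Over all 7 pathway lists without Hif1a and Egln1, 44 of 112 genes were listed and 23 were compared. Of these 23, 1 was higher and 1 lower, which is 8.70% against 7.24% of all compared genes. Both, Kdm5c and Kdm7a, were dioxygenase genes compared as relatives of EGLN1, and none of the 23 from the other lists passed the rule. The share was near the background. Within 1.5-fold of equality lay 17 of the 23, and 75.8% of all compared genes did so, which is also near. Their median log2 ratio was 0.21, and it was 0.07 when scaled by the median of ratios and 0.06 with no count filter. The median over all compared genes was 0.03, and it moved as well, to -0.12, when scaled by the median of ratios.

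No listed gene overlapped Hif1a or Egln1 on the mouse coordinates, and no listed pseudogene carried their symbols. In the human RefSeq annotation HIF1A overlaps the noncoding genes HIF1A-AS1, HIF1A-AS2 and HIF1A-AS3, and EGLN1 overlaps the noncoding gene LOC107985360. The sources used here do not give the strand setting of the counting, so sense and antisense reads cannot be told apart. The nearest listed neighbours of Hif1a were Six4, 788 kb before it with 11 counts in each library, and Kcnh5 with 2 and 0. Those of Egln1 were Ttc13, 187 kb before it with 6 and 0 counts, and Irf2bp2 with 2 and 1.

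Likeness of pattern could be measured only as the difference in log2 ratio over 2 libraries. It was measured among protein-coding genes with at least 100 counts, a filter that Hif1a (63 counts) and Egln1 (56 counts) did not meet themselves. Among all 1588 genes with at least 20 counts, 25 had a lower ratio than Hif1a. Past the filter none came close to Hif1a. Ggnbp2 differed least from it, by 1.003 on the log2 scale (138 and 42 counts). Tardbp and Fyn followed and differed by 1.14 and 1.25. Snrpa1, Ppp1r12a and Nptn lay nearest to Egln1, within 0.014 on the log2 scale, with ratios of 1.58, 1.57 and 1.60. Their counts were larger, and the interval of Snrpa1 (1.25 to 2.01, from 123 and 176 counts) excluded equality where that of Egln1 did not.

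The authors' deposited table gave Hif1a a log2 fold change of vector over knockout of 2.66 with an adjusted p of 5.02e-05. It gave Egln1 -0.65 with an adjusted p of 0.942. These p-values in the authors' deposited table compare 1 library with 1, so they do not rest on a spread between replicates.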

How the data were processed

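RNA-seq of 1 vector and 1 SCRN1 knockout library labelled as HepG2 cells was compared, grouped by the genotype in the labels. In the submitters' processing notes the build is GRCh38, and the tools are StringTie 1.3.0, HISAT2 2.0.4 and bcl2fastq 2.19. The sources used here do not name the counting tool. The deposited raw counts are whole numbers per gene, and the deposited FPKM values are so named per the file headers. The deposited log2 fold change is vector over knockout, and the deposited p-values and adjusted p-values are the authors' own.

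Libraries were scaled by TMM in edgeR 4.0.16 under R 4.3.3. Ratios of knockout over vector carry exact conditional binomial (Clopper-Pearson) intervals, and CPM (counts over the library total) and FPKM carry exact Poisson intervals, all at 95%. Reads are not independent molecules, so intervals cover counting error only. With 1 library per group no quasi-likelihood fit was possible. For medians and log2 ratios 0.5 was added to each count. The floor used for sparse genes, 3 counts, corresponds to 16.8 CPM (vector) and 18.3 CPM (knockout). The ratio rule was tested on simulated data drawn with Poisson counting error alone, as the intervals assume. The simulation therefore does not show how the rule behaves with spread between cultures.

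The members, gene lists and tests were chosen with earlier results of these data known. Named genes were the members, all listed subunit, hydroxylase and VHL ligase genes, the called and the 3 most counted genes of other lists, neighbours, and the 3 genes nearest in log2 ratio; Pgk1, Slc2a1, Tpi1, Eno1, Plod2, Alkbh5 and the KEGG genes were named after their values were seen. Alternatives were size factors from DESeq2 1.42.0, library totals, upper quartile factors, FPKM, the count filter and the fold. Other computations used SciPy 1.17.1, pandas 2.3.3, NumPy 2.4.6 and, for figures, matplotlib 3.10.9, in Python 3.11.15.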

Additional observations from a re-analysis of the deposited data

How the results depend on the processing

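Hif1a stayed past the 2-fold rule under all 3 other scalings, with knockout-over-vector ratios from 0.145 (median of ratios) to 0.162 (upper quartile), and was 0.159 from FPKM. Egln1 stayed short of the rule under all 3, with ratios from 1.43 (0.817 to 2.56, median of ratios) to 1.60 (0.912 to 2.85, upper quartile), and was 1.56 from FPKM. The Egln1-over-Hif1a ratio in the vector library was 0.418 in counts and 0.809 in FPKM, which divides by gene length; in the knockout library it was 4.125 and 7.98.

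The number of genes past the rule was 115 (53 higher, 62 lower). The median of ratios gave both libraries 1 common total (170873), so it corrected for no difference in depth. The count was 295 (128 and 167) with no count filter, 42 (19 and 23) with at least 50 counts, and 181 (93 higher) at 1.5-fold, where more or fewer genes qualify by construction. Under other scalings the count was 114 to 131. With no count filter the pathway genes past the rule rose from 2 to 3 by adding Alkbh5, an RNA demethylase gene with 10 and 0 counts that was named after its value was seen and whose ratio had an upper bound of 0.494.

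No paired analysis was possible because each group had 1 library. Leaving out a replicate was not an option for the same reason. Counting error on the 8 counts of Hif1a in the knockout library (Poisson 3.45 to 15.8) is part of the interval of its ratio; the spread between cultures was not measured.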

Other observations

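The deposited table annotates genes with KEGG pathways, and its HIF-1 signaling entry was summarised after the data were seen. Besides Hif1a and Egln1 it held 30 listed genes, of which 15 had at least 20 counts. Of these 15, 0 passed the 2-fold rule, against 7.24% of all compared genes. Their median log2 ratio was 0.06, and their range was -0.82 to 0.72. Igf1r, the insulin-like growth factor 1 receptor gene, was lowest, with 20 (vector) and 10 (knockout) counts and a ratio of 0.553 (0.231 to 1.24). Pik3ca, which encodes a catalytic subunit of PI3-kinase, was highest, with 26 and 39 counts and a ratio of 1.66 (0.985 to 2.84). Rps6kb1, the S6 kinase gene downstream of mTOR, was the best counted of those named, with 141 and 120 counts and a ratio of 0.942 (0.732 to 1.21). Stat3 had 32 and 26 counts, a ratio of 0.899 (0.515 to 1.56).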
